A study of Arabidopsis thaliana with 6 samples.

Results

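In mature pollen of Arabidopsis thaliana, 98 genes had a lower array signal in 1 insertion line, the TF2 line, than in wild type and in a different insertion line, the TF1 line, in which their signal stayed near wild type or was above it. They were chosen by their signal on 6 Affymetrix ATH1 arrays, 2 for each of the 3 groups. On the linear signal scale, each wild-type and each TF1 array had to reach at least 60, and both TF2 arrays had to lie below all 4 of these. The mean TF2 signal had to be at most 0.6 of the mean wild-type signal, and the mean TF1 signal at least 0.85 of it. The arrays hold 13513 probe sets with 1 annotated gene, for 13350 genes. Of these probe sets, 2677 reached the floor on all 4 wild-type and TF1 arrays and 104 met every limit. Of these, 6 were left out by name, from a list of 10 genes to be left out, so that 98 probe sets of 98 genes remained. A further 3 probe sets with several listed genes and 72 with no listed gene met the same limits and are not described here. Because the limits used all 6 arrays and all 3 contrasts, the values of the 98 genes are a description. No p-value is given for these values, and nothing is read from the counts of their limma calls below.

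The wild type was Col-0, stock N1092. The TF1 line was stock SAIL_1168_C11 and the TF2 line stock SALK_018864, both in the Col-0 background and each a single insertion line, so that an effect of the insertion and any other difference of that line cannot be told apart. All 6 samples were total RNA of mature pollen from plants at stage 6.00, grown in compost at 21 °C and 75% humidity in a growth room. The study is titled for gametophytic transcription factors, and the labels do not name the genes disrupted. Whether the 2 replicates of a group were separate pollen collections is not stated in the labels. The p-values below rest on the spread between replicates within groups, drawn by limma toward a trend with signal over all tested probe sets. That replicate spread may therefore be technical.

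A mature pollen grain holds a large vegetative cell, which later grows the pollen tube, and the sperm cells it carries. Dry pollen stores many messenger RNAs before germination, among them those for protein folding, cytoskeleton, wall and energy metabolism, because tube growth starts quickly and uses much energy and membrane. From outside the labels, SALK_018864 is known to carry an insertion in BZIP34, which encodes a basic leucine zipper transcription factor of pollen. The BZIP34 probe set had signals of 35.5 and 55.7 in wild type, 27.7 and 59.8 in the TF1 line and 128 and 123 in the TF2 line. Its TF2 signal was the highest of the 3 groups. The position of the probes with respect to the insertion was not examined, so this signal checks nothing about the label.

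The 3 groups also differed in markers of other tissues and in control probe sets, and the part of these differences in the results below was not tested. All 10 leaf and photosynthesis genes kept for testing were lower in both lines than in wild type. Of all probe sets kept for testing, 16% were lower in TF2 and 9.64% in TF1. The 11 measured genes of that list had summed signals of 6771 and 6342 in wild type, 608 and 729 in the TF1 line and 622 and 750.0 in the TF2 line. Between the lines 0 of the 10 passed the test. The 9 measured markers of flower, vascular and root tissue summed to 665 and 578 in wild type, 838 and 784 in the TF1 line and 323 and 400.3 in the TF2 line. Without BAN, DFR and DELTA-VPE, 3 of the genes left out by name, the other 6 summed to 392 and 323 in wild type, 192 and 149 in the TF1 line and 208 and 249.98 in the TF2 line. The sum of all 9 was thus lowest in the TF2 line and that of the 6 in the TF1 line. The stomatal genes SPCH and MUTE, named after their values were seen, had signals of at most 13.3 on every array. The 3 measured tapetum genes summed to 733 and 625 in wild type, 313 and 378 in the TF1 line and 258 and 161 in the TF2 line. Control probe sets, which were not tested, went different ways. A 3′ probe set of actin had 595 and 699.8 in wild type, 220.2 and 231 in the TF1 line and 99.6 and 138 in the TF2 line. The 5′ probe set of actin from the same control series had 131 and 201, 55.7 and 128, then 90.6 and 64.1. A 5′ probe set of actin from a different control series rose, with 104 and 84.8, 102 and 172, then 229 and 349. A 3′ probe set of the glycolysis enzyme GAPDH had 794 and 719, 230 and 225, then 92.6 and 139, and the other GAPDH control probe sets were also lowest in TF2. A 3′ probe set of ubiquitin stayed between 3842 and 5055 on all arrays. Of the 10 kept genes of the vegetative cell, 8 were higher in each line than in wild type. Of all probe sets kept for testing, 14.8% were higher in TF2 and 11.9% in TF1. In bulk pollen, fewer cells of a type and less RNA per cell cannot be told apart.

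The 98 genes were of moderate brightness in wild type. Their median signal in wild type was 113 and 124, that in the TF1 line 123 and 141 and that in the TF2 line 53.7 and 56.0. The median of all probe sets stayed between 33.6 and 43.0 over the 6 arrays. Wild-type means ran from 65.1 to 9614 with a median of 120, and 38 genes lay under 100, while 25 reached 200 and 6 reached 500. The mean TF2 signal was between 7.15% and 59.6% of wild type, with a median of 45.7%. It was at or below 0.5 of wild type for 64 genes, 0.3 for 19 and 0.1 for 3.

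**Figure D1:**
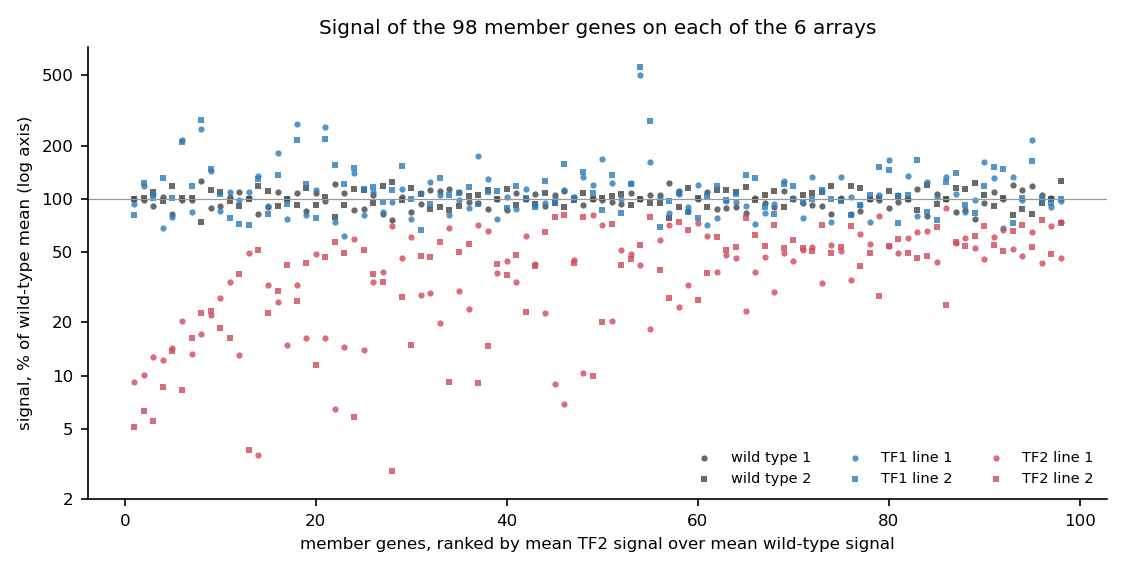
Signal of the 98 genes on each of the 6 arrays, as a percentage of that gene's wild-type mean (vertical axis, log scale), with genes ranked along the horizontal axis by mean TF2 over mean wild-type signal; circles are replicate 1 and squares replicate 2. Both TF2 points of every gene lie below its other 4, as the selection required, and the TF1 points of AT1G67640 stand highest.

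In the TF1 line the same genes scattered around the wild-type level, with a median ratio of 1.03 and a range from 0.853 to 5.29. Of the 98, 71 had a TF1 mean from 0.85 to 1.2 of wild type, 42 lay under wild type, and 9 reached 1.5 times wild type. Both TF1 arrays were above both wild-type arrays for 29 genes, against 49.1% of the 2677 probe sets over the floor, and both were below for 5, against 25.8%. For the other 64 the TF1 and wild-type arrays overlapped. The TF1 limit kept out genes with a TF1 mean well under wild type, so nothing is read from these TF1 counts beside the 2677. Both TF2 arrays lay below the other 4 in 21.3% of those 2677 probe sets, and in all 98 genes because the selection required it. With the roles of the lines exchanged, 44 probe sets were low in the TF1 line alone, against 104 in the TF2 line before genes were left out by name. A further 915 were low in both lines by a different rule, so this count is not on the same footing. That rule set the floor on the wild-type arrays alone. It asked that each line be at most 0.6 of wild type, with all 4 line arrays below both wild-type arrays.

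**Figure D2:**
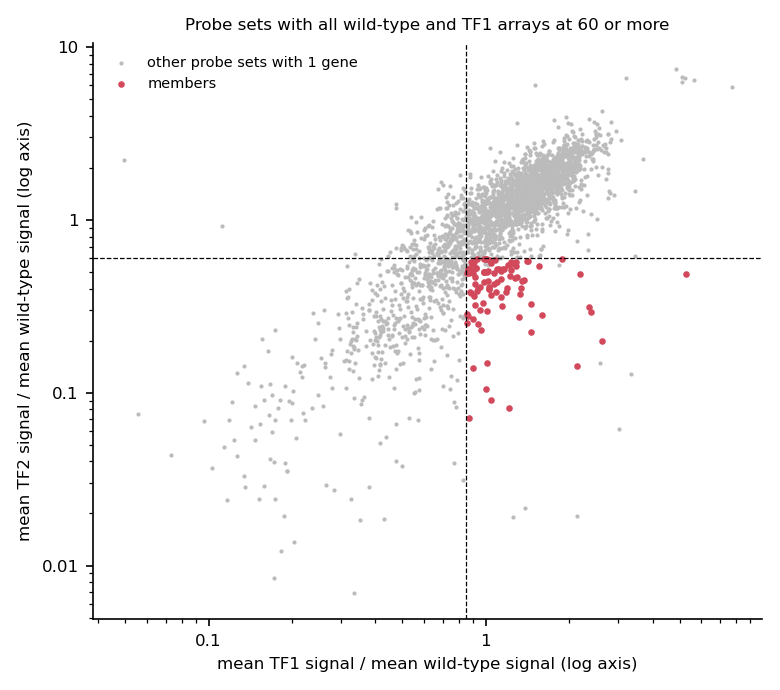
Mean TF2 signal over mean wild-type signal (vertical axis) against mean TF1 signal over mean wild-type signal (horizontal axis), both on log scales, for probe sets with 1 gene and all wild-type and TF1 arrays at 60 or more; the 98 genes are in red (members), the rest in grey, and dashed lines mark 0.6 and 0.85. The 98 genes lie in the lower right by the choice of limits, and grey points in that corner are genes left out by name or with overlapping arrays.

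On the log2(signal + 10.3) scale, where 10.3 is the 25th percentile of all values and serves as a pseudocount, the median difference of the 98 genes between TF2 and wild type was -1.08, against 0.05 over the 11373 probe sets kept for testing. Between TF1 and wild type it was 0.02, against -0.02, and between TF2 and TF1 -1.24, against 0.02. In the limma fit over all kept probe sets, 53 of the 98 had an adjusted p under 0.05 for a lower TF2 than wild-type signal, where 16% of all kept probe sets did. Between TF2 and TF1, 33 of the 98 were called lower, against 3.8%. Between TF1 and wild type 7 were called higher, against 11.9%, and 0 lower, against 9.64%. The selection used these contrasts, so nothing is read from the counts. All 3 comparisons share arrays.

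Gene names were held for 22 of the 98, and the first group of these works in protein folding. ROF2 (AT5G48570, also FKBP65), a peptidyl-prolyl isomerase that binds the chaperone HSP90 in the heat response, had signals of 667 and 668 in wild type, 627 and 538 in the TF1 line and 61.1 and 34.3 in the TF2 line. Its TF2 mean was 7.15% of wild type, the lowest ratio of all 98 genes, while its TF1 mean was 87.3%. ATERDJ3B, a J-domain partner of the chaperone BiP in the endoplasmic reticulum, read 486 and 414 in wild type, 553 and 547 in the TF1 line and 219 and 205 in the TF2 line. Both TF1 arrays were above wild type here, and the TF2 mean was 47.2% of wild type.

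Cpn60beta2, a subunit of the plastid chaperonin, had 110.0 and 131 in wild type, 133 and 136 in the TF1 line and 40.1 and 85.2 in the TF2 line. The TF2 replicates of this gene were over 2-fold apart, and the higher of them was at 77.5% of the lowest other array. Fes1A, an HSP70-binding protein named for its yeast counterpart, lay at the edge of the limit, with 166 and 149, 158 and 159, then 68.1 and 119 in the same order of groups. Its TF2 mean was 59.5% of wild type.

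A list of heat shock and protein folding genes had 58 names, but only 6 had a probe set with 1 annotated gene, and 5 were kept. Of these 5, ROF2 and ATERDJ3B were chosen for a low TF2 signal and are not counted. Of the other 3, limma called 3 lower in TF2 and 1 lower in TF1 than in wild type, and 1 lower in TF2 than in TF1. Their median difference was -1.67 in TF2 and -0.71 in TF1 on the log2 scale, against 0.05 and -0.02 over all kept probe sets. Of all kept probe sets, 16% were called lower and 14.8% higher in TF2 than in wild type, and 9.64% and 11.9% in TF1. Between TF2 and TF1, 3.8% were called lower and 0.853% higher. These shares stand beside the counts of every list and family below, all chosen with results of these data known. The 3 kept genes that are not among the 98 were TIL, Hop2 and Hop3. TIL, a temperature-induced lipocalin that protects membranes in heat, had 485 and 473 in wild type, 298 and 279 in the TF1 line and 138 and 135 in the TF2 line. Its TF2 difference from wild type was -1.73 (SE 0.19, limma adjusted p = 2.52e-05), with intermediate TF1 arrays that overlapped neither group.

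Hop2, named for the proteins that link HSP70 and HSP90, had 140.0 and 128 in wild type, 63.9 and 88.3 in the TF1 line and 45.4 and 36.8 in the TF2 line. The difference between TF2 and wild type was -1.49 (SE 0.37, limma adjusted p = 0.00906), and it no longer passed without wild-type replicate 1 (0.0990) or replicate 2 (0.0690). For Hop3 the difference of -1.67 (SE 0.59, limma adjusted p = 0.0489) was lost under 8 of 10 alternative settings, with p-values up to 0.274. In all 3 genes the TF1 mean lay between wild type and TF2 and under the TF1 limit of the selection. TIL and Hop2 met the other limits and stayed outside the selection only by the TF1 limit. Their low TF1 signal is therefore by construction. Nothing is read from it, nor from the TF1 median and TF1 count of these 3 genes given above.

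Among the 4 named genes next described, 3 belong to protein ubiquitination, in which E2 enzymes carry ubiquitin and E3 ligases pass it to targets. PUB22, a U-box E3 ligase that restrains immune and drought responses, had 114 and 112 in wild type, 124 and 80.8 in the TF1 line and 56.1 and 4.33 in the TF2 line. The TF2 arrays of PUB22 were far apart, with replicate 2 under the pseudocount. The E2 enzyme UBC22 had 454 and 440.5 in wild type, 323 and 586 in the TF1 line and 172 and 279 in the TF2 line, and the TF1 arrays lay on either side of wild type. The E2 enzyme UBC19 had 183 and 116, 124 and 146, then 106 and 41.1, and its higher TF2 array was at 91.2% of the lowest other array. SAY1, for which no role is given here, had 66.1 and 66.7 in wild type, 88.4 and 82.5 in the TF1 line and 58.8 and 16.6 in the TF2 line.

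From the ubiquitin, proteasome and autophagy list, with 6 kept genes of which none is among the 98, 3 were lower and 1 higher in TF2, and 1 was lower and 1 higher in TF1. Over all kept probe sets the shares were 16% lower and 14.8% higher in TF2, and 9.64% and 11.9% in TF1. ATG8F, which coats autophagosome membranes, had 199.6 and 203 in wild type, 58.4 and 70.9 in the TF1 line and 48.6 and 67.6 in the TF2 line, so that it was low in both lines. Its TF2 difference was -1.65 (SE 0.33, limma adjusted p = 0.00242).

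**Figure D3:**
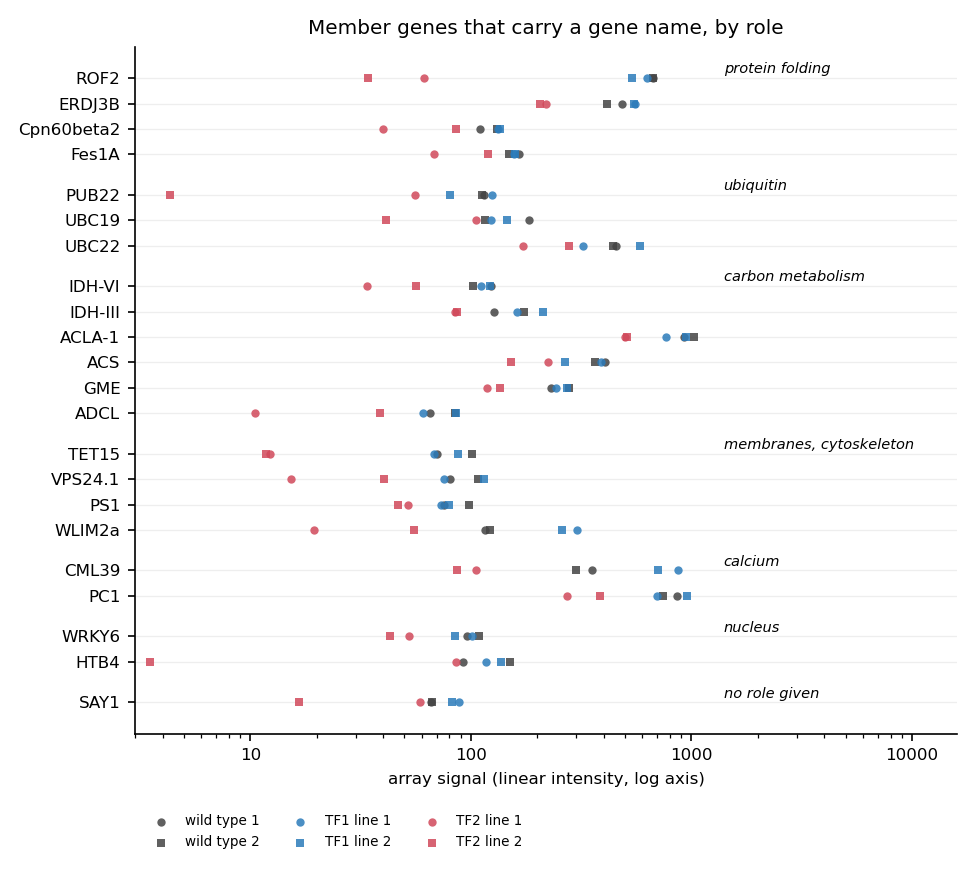
Array signal (horizontal axis, log scale) of the 22 genes among the 98 that carry a name, grouped by role; colours are the 3 groups, circles replicate 1 and squares replicate 2. ROF2 and TET15 show wide gaps between both TF2 arrays and the rest, and the TF2 points of PUB22 and HTB4 are far apart.

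Metabolism held 6 named genes. Mitochondrial NAD-dependent isocitrate dehydrogenase, an enzyme of the citric acid cycle, was represented by a catalytic and a regulatory subunit. The catalytic subunit IDH-VI had 123 and 102 in wild type, 111 and 122 in the TF1 line and 33.8 and 56.2 in the TF2 line, with a TF2 mean at 39.9% of wild type. The regulatory subunit IDH-III had 127 and 175, 162 and 212, then 85.1 and 86.2, at 56.7%. The catalytic subunit IDH-V, not among the 98 and chosen after its values were seen, had 323 and 388 in wild type, 363 and 384 in the TF1 line and 222 and 308 in the TF2 line.

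2 named enzymes make acetyl-CoA outside the pyruvate dehydrogenase route. ACLA-1, the A subunit of the cytosolic enzyme ATP-citrate lyase, had 929 and 1026 in wild type, 765 and 941 in the TF1 line and 502 and 513 in the TF2 line. Its TF2 replicates were close together and its TF2 mean was 51.9% of wild type. ACS, acetyl-CoA synthetase, had 405 and 364, 389 and 267, then 225 and 152. The TF1 mean of ACS was 85.3% of wild type, the lowest TF1 ratio of the 98 genes, and TF1 replicate 2 lay between the wild-type and TF2 arrays.

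GME, the GDP-mannose epimerase of ascorbate and wall sugar synthesis, had 229.9 and 278 in wild type, 242 and 272 in the TF1 line and 118 and 136 in the TF2 line. All 4 wild-type and TF1 arrays lay close together, and both TF2 arrays lay well under them. ADCL, which makes p-aminobenzoate for folate, was dim, with 65.6 and 84.8, 60.7 and 85.9, then 10.5 and 38.8.

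In the mitochondrial and sugar metabolism list, none of the 7 kept genes is among the 98, and 5 were lower and 1 higher in TF2 than in wild type, against 3 lower and 0 higher in TF1. Over all kept probe sets the shares were 16% lower and 14.8% higher in TF2, and 9.64% and 11.9% in TF1. The median difference of the 7 genes was -0.97 in TF2 and -0.51 in TF1. CYTC-1, a cytochrome c, had 972 and 940 in wild type, 318 and 328 in the TF1 line and 151 and 134 in the TF2 line. GAPC2, a cytosolic enzyme of glycolysis, had 1139 and 996, 375 and 366, then 169 and 210.2. For both the TF2 arrays were lowest, and the TF1 arrays were also far below wild type. Both genes met the other limits and stayed outside the 98 only by the TF1 limit. Nothing is therefore read from the contrast with the 98 genes. The TF2 difference from wild type was -2.66 (SE 0.17, limma adjusted p = 4.73e-07) for CYTC-1. For GAPC2 it was -2.44 (SE 0.17, limma adjusted p = 1.13e-06). The related CYTC-2, also named after its values were seen, was not called in any of the 3 comparisons.

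Membrane and cytoskeleton genes included the named gene with the lowest TF2 ratio after ROF2. This was TET15, a tetraspanin, a class of proteins that span the membrane, which had 70.3 and 101 in wild type, 67.7 and 87.4 in the TF1 line and 12.2 and 11.8 in the TF2 line. TET15 had TF2 arrays close together at 14.0% of wild type. Of 7 other kept TET genes, a family chosen after values were seen, 1 was higher and 1 lower in TF2 by limma. VPS24.1, a subunit of the ESCRT-III complex that sorts membrane proteins, had 80.2 and 107, 75.6 and 115, then 15.3 and 40.5. PS1, a presenilin of the gamma-secretase type, had 75.4 and 98.3, 73.3 and 79.8, then 52.1 and 46.8, and it met the limits in only 2 of the 8 repeats described below.

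WLIM2a, a LIM protein that bundles actin filaments, moved apart in the 2 lines, with 115 and 122 in wild type, 304 and 259 in the TF1 line and 19.5 and 55.4 in the TF2 line. Its TF1 mean was 237% of wild type and its TF2 mean 31.5%. Of the 4 other LIM genes kept, a family chosen after values were seen, limma called 2 lower and 2 higher in TF2 against wild type, and none of the 4 was called between the lines. The pollen-type genes PLIM2a and PLIM2b were the higher ones. PLIM2b had 6842 and 6672 in wild type, against 13825 and 15398 in the TF2 line.

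Calcium-binding genes supplied CML39 (AT1G76640), a calmodulin-like sensor, and PC1, an EF-hand protein of pollen. CML39 had 353 and 300.3 in wild type, 866 and 703 in the TF1 line and 106 and 86.6 in the TF2 line. As with WLIM2a, the groups did not overlap, with TF1 at 240.1% and TF2 at 29.5% of wild type. PC1 was bright, with 861 and 742, 700.2 and 951, then 272 and 384, and its TF1 arrays lay on either side of wild type. Of the 5 other kept CML genes, a family chosen after values were seen, limma called 3 lower in TF2 and 0 in TF1 against wild type, but 0 between TF2 and TF1. Over all kept probe sets the lower calls were 16%, 9.64% and 3.8% in the same order, and nothing is read from so few genes. CML38 had 207 and 129 in wild type, 123 and 94.7 in the TF1 line and 28.3 and 49.1 in the TF2 line. The CML38 difference between TF2 and wild type was -1.86 (SE 0.38, limma adjusted p = 0.00251), and without wild-type replicate 1 it missed the threshold (0.0682).

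In the defence, jasmonate and stress list, CML39 is again not counted. Of the 5 other kept genes limma called 3 lower and 1 higher in TF2 against wild type, 2 lower and 1 higher in TF1 against wild type, and 1 lower and 1 higher in TF2 against TF1. STZ (ZAT10), a zinc-finger repressor of stress responses, had 526 and 448 in wild type, 296 and 302 in the TF1 line and 99.4 and 138 in the TF2 line. Its TF2 difference from wild type was -1.96 (SE 0.21, limma adjusted p = 2.77e-05). JMT, which makes methyl jasmonate, went the other way, with 252 and 244 in wild type, 1313 and 1103 in the TF1 line and 2008 and 1710 in the TF2 line. Its TF2 difference from wild type was 2.85 (SE 0.15, limma adjusted p = 1.05e-07).

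**Figure D4:**
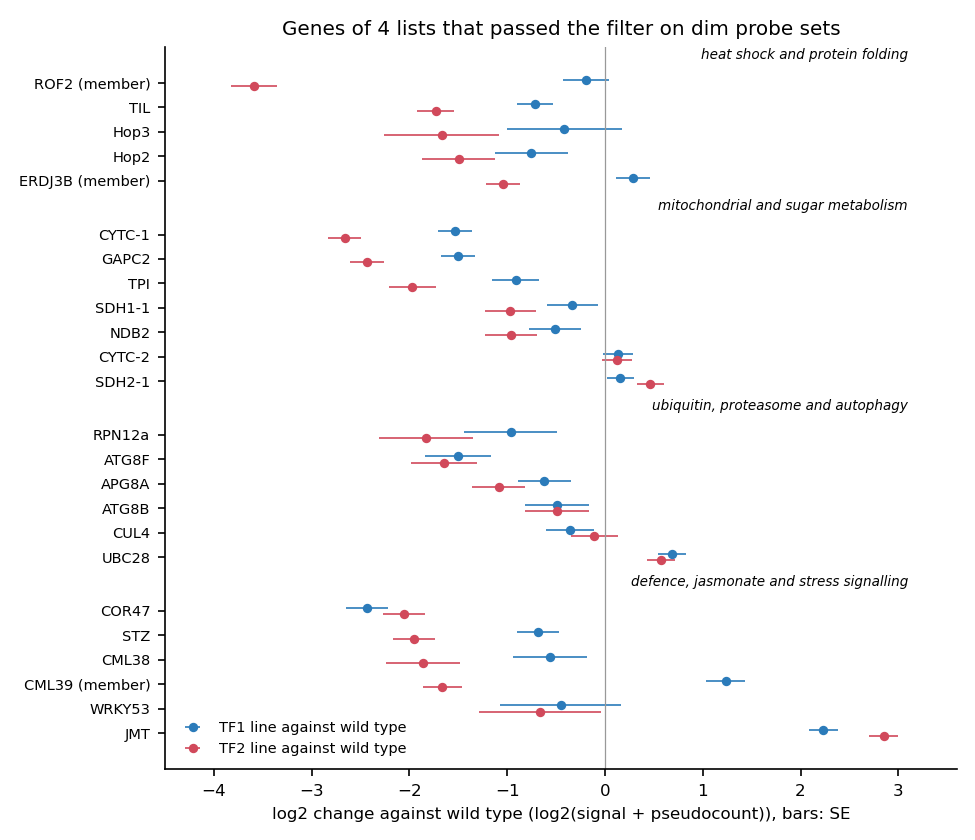
Log2 difference from wild type on the log2(signal + 10.3) scale (horizontal axis) in the TF1 line (blue) and the TF2 line (red) for the kept genes of 4 lists, with the standard error of the limma fit as bars and genes among the 98 marked as members. CYTC-1, GAPC2 and TIL lay below 0 in both lines and further in TF2, whereas ROF2 was near 0 and CML39 above 0 in TF1. The TF1 limit of the selection set these genes apart, so nothing is read from the contrast.

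Nuclear proteins gave 2 named genes. WRKY6, a transcription factor of senescence and phosphate responses, had 95.8 and 109 in wild type, 101 and 85.1 in the TF1 line and 52.7 and 43.0 in the TF2 line. The 3 groups had similar replicate gaps, and its TF2 mean was 46.8% of wild type. HTB4, a histone H2B, had 92.4 and 151, 117 and 137, then 85.7 and 3.52. Its TF2 mean of 36.7% rests on replicate 2, because replicate 1 was at 92.7% of the lowest other array. None of 4 other kept WRKY genes, a family chosen after values were seen, was called in any comparison.

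The other 76 genes are known by locus only and no role is given for them. AT1G69840 followed ROF2 as the second lowest ratio, with 679 and 697 in wild type, 817 and 846 in the TF1 line and 69.0 and 43.5 in the TF2 line. It was also bright, and its TF2 arrays were at most 10.2% of the lowest other array. AT2G02210, marked as a pseudogene by RefSeq, had 66.4 and 79.7, 78.3 and 73.9, then 9.25 and 4.06. It was the 1 gene with both TF2 arrays under the pseudocount, so the size of its ratio rests on dim signals. Pseudogenes made up 4 of the 98, the others being AT3G30440, AT3G44500 and AT4G04010.

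AT2G17710 had 148 and 142 in wild type, 98.9 and 191 in the TF1 line and 17.8 and 12.6 in the TF2 line. AT2G35330 had 71.2 and 73.3, 61.2 and 84.98, then 9.61 and 11.9. Both had overlapping wild-type and TF1 arrays, with TF2 means of 10.5% and 14.9% of wild type. AT2G30810 at 14.3% and AT2G38900 at 19.9% had similar ratios, and the next were those of AT4G12980 at 22.6%, AT3G56200 at 23.0%, AT5G42740 at 24.97% and AT3G57630 at 25.4%. AT4G12980 lies 2 genes from GILT, one of the genes left out by name, and no pair of the 98 lay within 3 genes of each other in the RefSeq gene order.

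The brightest were AT5G38760 and AT3G28980, the only 2 with wild-type means over 1000. AT5G38760 had 10458 and 8771 in wild type, 12656 and 14585 in the TF1 line and 5859 and 5265 in the TF2 line. AT3G28980 had 9128 and 8817, 9199 and 9036, then 4032 and 3891. The higher TF2 array was at 45.7% of the lowest other array in AT3G28980 and at 66.8% in AT5G38760. AT5G38760 was also above wild type on both TF1 arrays, and its TF2 mean was 57.9% of wild type. It met the limits in 4 of the 8 repeats described below, and under neither other scaling. AT3G28980 met them in 7, and not with quantile normalization. AT3G15450, next among the locus-only genes after AT1G69840, had 428 and 528, 434 and 393, then 156 and 108.

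A further 7 locus-only genes had wild-type means over 300, and they were singled out after their values were seen. AT1G22460 had 431 and 434 in wild type, 584 and 452 in the TF1 line and 259.8 and 214 in the TF2 line. AT1G70810 had 352 and 387, 599 and 439, then 168 and 258. In both genes both TF1 arrays were above wild type, with TF2 means of 54.8% and 57.7%. AT1G04430 had 310.1 and 351, 359 and 221, then 94.3 and 158. AT5G46200 had 323 and 325, 328 and 385, then 144 and 191. The wild-type arrays of AT5G46200 were almost equal, and its TF2 mean was 51.7% of them. AT1G67360 had 353 and 274, 391 and 292, then 92.3 and 148. AT1G02305 had 317 and 286, 331 and 354, then 102 and 113. AT1G02305 had close replicates in every group and a TF2 mean of 35.6% of wild type. AT1G74450 had 372 and 308, 620.4 and 466, then 89.0 and 102, with the TF1 arrays highest.

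Both TF1 arrays were below both wild-type arrays in 5 genes, which were ROF2, AT4G04010, AT5G11700, AT1G79520 and AT2G37975, and values of AT5G11700 and AT1G79520 are given after they were seen. AT5G11700 was dim but even, with 78.6 and 68.7 in wild type, 68.0 and 66.4 in the TF1 line and 31.5 and 30.9 in the TF2 line. AT1G79520 had 195 and 215, 171 and 184, then 96.6 and 111. In both the step from TF1 to TF2 was wider than that from wild type to TF1. The limits on the mean signals required this of every chosen gene with a TF1 mean under wild type, so nothing is read from it.

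The 9 genes with a TF1 mean at least 1.5 times wild type were singled out after their values were seen, and CML39 and WLIM2a are among them. AT1G67640 had the highest TF1 ratio, with 142 and 142 in wild type, 712 and 788 in the TF1 line and 60.2 and 77.5 in the TF2 line. Its TF1 mean was 529% of wild type and its TF2 mean 48.6%. AT2G38900 had 175 and 103, 344 and 388, then 23.9 and 31.5. AT2G30810 had 90.7 and 93.3, 199 and 194, then 18.7 and 7.58. In these 3 genes the 3 groups did not overlap, with TF1 the highest and TF2 the lowest. The other 4 were AT4G30490 at 219% of wild type in TF1, AT2G17660 at 189%, AT1G74450 at 159.9% and AT5G59845 at 156%.

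The TF2 replicates of these genes were further apart than those of the other groups. They were over 2-fold apart for 40 of the 98 genes, or 40.8%, against 9.82% of the 2677 probe sets over the floor, with 3 such genes in the TF1 line and 0 in wild type. The median replicate fold was 1.58 in TF2, 1.24 in TF1 and 1.18 in wild type, against 1.19, 1.17 and 1.14 over the 2677. The selection set a floor on the wild-type and TF1 arrays and none on the TF2 arrays. Of the 40, 22 were lower on TF2 replicate 1 and 18 on replicate 2. Wide gaps were found among genes with a wild-type mean under 200, with 1 exception. Of the 38 genes with a wild-type mean under 100, 23 were over 2-fold apart, with a median fold of 2.44. Of the 35 genes from 100 to 200, 16 were, with a median fold of 1.67, and of the 19 from 200 to 500, 1 was, with a median fold of 1.22. Of the 6 genes at 500 and over, 0 were, with a median fold of 1.26.

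**Figure D5:**
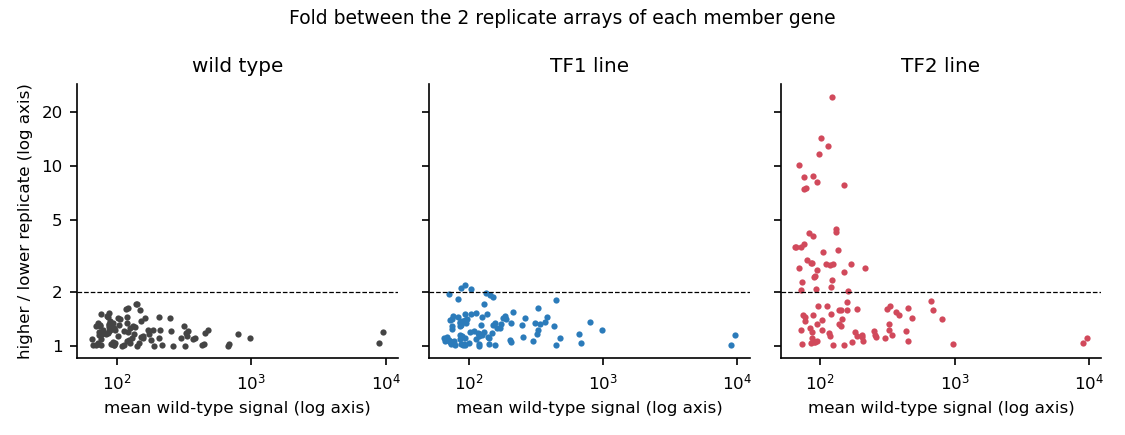
Higher over lower replicate signal (vertical axis, log scale) of each of the 98 genes against its mean wild-type signal (horizontal axis, log scale), in 1 panel for each group, with a dashed line at 2-fold. Folds over 2 are mostly in the TF2 panel, at low wild-type signal, and the 6 genes at 500 and over stay under 2-fold there.

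In 6 genes the replicates were within 1.2-fold in every group. These were AT1G02305, AT5G11700, AT3G28980, ATERDJ3B, AT1G79520 and AT5G38760. The higher TF2 array was under 0.5 of the lowest other array for 20 genes and over 0.9 of it for 9, with a median of 0.682.

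Near the TF2 limit, Fes1A at 59.5% of wild type, AT2G37975 at 59.6% and AT3G19740 at 59.6% were just inside, and AT1G67540 at 60.2%, AT2G19270 at 60.3% and AT1G55410 at 60.5% were just outside. Near the TF1 limit, ACS at 85.3%, AT4G04010 at 85.3% and AT3G57630 at 85.7% were inside, and AT3G50550 at 83.7%, AT5G39520 at 83.6% and AT3G47610 at 83.5% were outside. AT3G19740 has a further probe set, which had 34.4 and 17.1 in wild type, 52.4 and 40.2 in the TF1 line and 45.0 and 47.0 in the TF2 line. Its TF2 arrays were above both wild-type arrays, against the direction of the first. The TF2 difference of that probe set, which the selection did not use, was 0.69 (SE 0.58, limma adjusted p = 0.411), so no change was called in either direction.

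The selection was repeated under 2 other scalings and with each of the 6 arrays left out in turn. Of the 98 genes, 21 met the limits in all 8 repeats, 27 in 7, 15 in 6, 15 in 5, 10 in 4, 6 in 3 and 4 in 2. The 21 include AT1G69840, AT2G02210, ATERDJ3B, IDH-VI, WLIM2a, CML39 and PC1. ROF2 met them in 6 repeats, and UBC19 and PS1 in 2. Both other scalings kept 53 of the 98.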

How the data were processed

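The authors deposited 1 signal intensity per probe set and array for 22810 probe sets, on a linear scale. Per the submitters' processing notes, the tools were GCOS and MAS5, with versions not given in the sources used here. Detection calls were not used. The authors' scaling, with a mean of 100.0 per array after trimming 2% at each end, was not changed. Precision is limited by the number of arrays.

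The 98 genes and all gene lists were chosen with earlier results of these data known. Probe sets took their genes from the platform annotation, and gene names and order came from a RefSeq table (assembly TAIR10.1), with 97 genes matched by gene ID and PC1 by symbol. Signals were tested as log2(signal + 10.3). The 64 control probe sets were left out and probe sets with a mean log2 value at or above the median of all were kept, 11373 in number, among them all 98 genes. The 6 arrays were fitted together in limma 3.58.1 (R 4.3.3; lmFit, eBayes with an intensity trend), with two-sided tests, Benjamini-Hochberg adjustment within a comparison and a threshold of 0.05. The fit was also run on simulated data, with normal noise whose spread followed the signal as the fit assumes. That run cannot show how well the calls hold on the real arrays. The fold changes are on this log2 scale and understate the change of dim genes. List genes were counted with 1 probe set per gene. Most listed genes had no probe set with 1 annotated gene and were not examined, so the counts cover a small part of each list. Such probe sets were found for 9 of 57 names in mitochondrial and sugar metabolism, 6 of 46 in ubiquitin and 9 of 55 in defence. For leaf they were found for 11 of 57, for the vegetative cell 12 of 63, for tapetum 3 of 44 and for flower 9 of 57. 2 planned steps, promoter motifs and families by protein identity, were not run.

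Named genes were members with a gene name, the 12 lowest ratios, the 8 brightest, those near the limits, and up to 4 list genes past the threshold, and others were chosen after their values were seen. The main fit did not pair same-numbered arrays. Their deviations had correlations of 0.00794 (wild type and TF1), 0.0216 (wild type and TF2) and 0.00204 (TF1 and TF2). These values cannot show whether same-numbered samples were handled together. Other scalings, pseudocounts, filters and single arrays left out were tried.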

Additional observations from a re-analysis of the deposited data

Results flagged for a closer look

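The 2 lines differed from each other, by limma's test of TF2 against TF1, in 6 of the list genes that the text names outside the 98, and in 5 of these TF2 was lower. The difference was -1.02 for TIL (adjusted p = 0.00796), -1.13 for CYTC-1 (0.00234), -0.94 for GAPC2 (0.00840), -1.06 for TPI, a triose phosphate isomerase of glycolysis (0.0271), and -1.28 for STZ (0.00460). For JMT it was 0.62 (0.0358), with TF2 the higher. Of all kept probe sets, limma called 3.8% lower and 0.853% higher in TF2 than in TF1. The 6 genes were named for passing the threshold, so nothing is read from their count or their direction. All 6 missed the threshold without the intensity trend, with adjusted p-values of 0.109, 0.0897, 0.156, 0.196, 0.101 and 0.296 in that order. All but CYTC-1 also missed it without either TF1 array. The JMT call was lost under 7 of 10 alternatives, among them median centring (0.121), quantile normalization (0.0688) and no filter on dim probe sets (0.0649), and that of TPI under 5, among them quantile normalization (0.0699) and without TF2 replicate 2 (0.0972).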

How the results depend on the processing

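With a TF2 limit of 0.5 the selection gave 64 genes, with a floor of 100 it gave 49 and with a TF1 limit of 1.0 it gave 56, all by construction. Leaving out single arrays gave 109 to 168 genes, the highest without TF1 replicate 1. The median TF2 difference of the 98 genes was -0.96 with median centring, -0.93 with quantile normalization and -1.21 with the 10th percentile as pseudocount. Their median TF1 difference was 0.18 with median centring and 0.23 with quantile normalization, while the median of all kept probe sets moved to 0.14 and 0.11, and in TF2 to 0.16 and 0.14. The calls between TF2 and wild type went from 3506 to 2185 without an intensity trend, between TF1 and wild type from 2453 to 456, and between TF2 and TF1 from 529 to 175. Leaving out single arrays gave 2113 to 3201, 1266 to 1878 and 217 to 589 calls in the same order, with the low values without a wild-type array (2180 and 2113 for TF2, 1374 and 1266 for TF1) or without a TF1 array (222 and 217). A replicate block gave 3558, 2521 and 593 calls and changed no call of the list genes named. UBC28, above wild type in TF2 by 0.57 (limma adjusted p = 0.00895), reversed under quantile normalization to -0.38 (adjusted p = 0.0429), and the cause was not tested. With 2 arrays a group and dim TF2 signals, the ratios of dim genes are imprecise.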
